A study of Mus musculus with 40 samples.

Results

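The 36 genes of glucose metabolism and its hypoxia-linked control were followed through mouse CD4+ T cells at rest and after stimulation. They were taken by symbol for what they encode, not by a rule on measured values. Earlier results of these data were, however, known when they were chosen. All 36 were present among the 21950 genes of the expression table. By role they were 4 carriers of glucose or lactate (Slc2a1, Slc2a3, Slc16a1 and Slc16a3), 10 genes of upper glycolysis (Hk1, Hk2, Gpi1, Pfkl, Pfkm, Pfkp, Pfkfb3, Aldoa, Aldoc and Tpi1) and 6 of lower glycolysis (Gapdh, Pgk1, Pgam1, Eno1, Pkm and Ldha). A further 6 belonged to the pentose phosphate pathway (G6pdx, Pgls, Pgd, Rpia, Tkt and Taldo1), 4 were hypoxia-linked (Hif1a, Egln1, Egln3 and Bnip3) and 6 govern the entry of pyruvate into mitochondria (Pdk1, Pdk2, Pdk3, Pdha1, Mpc1 and Mpc2). All 36 passed the minimum of 10 normalized reads in 3 libraries that was set for testing. The measurements were 24 RNA-seq libraries, 3 for each of 8 groups, and the 16 chromatin samples of the series were not used here. The mice were of C57BL/6 background and carried a fluorescent reporter of Foxp3, the transcription factor that marks regulatory T cells (GFP for the sorted cells, GFP or RFP for iTregs). Conventional T cells (Tconv) and thymus-derived regulatory T cells (tTregs, nTreg in the labels) were sorted from spleens of mice 2 to 4 months old and profiled either resting or activated. Induced regulatory T cells (iTregs) were made in culture from naive CD4+ T cells of mice 6 weeks old. During the 4 days of induction these cells were themselves stimulated with plate-bound anti-CD3 (0.5 μg/ml) and anti-CD28 (1 μg/ml), with 2 ng/ml TGF-β and IL-2, before a sort for the Foxp3 reporter and 1 day of rest in IL-2. Resting iTregs had thus been stimulated through the T cell receptor before. iTregs were profiled resting, restimulated with both antibodies at the same doses, or restimulated in the presence of an ORAI inhibitor (ORAIinh in the labels, which name no compound) or of cyclosporin A (CsA). For the RNA-seq of restimulated iTregs the study names CM-4620 and CsA. A further inhibitor of calcium entry, BTP2, is named there only for a check of Foxp3 staining. Inhibitor doses and the length of stimulation before RNA was taken were not given in the sources used here. iTregs thus differed from the sorted cells in culture, starting cell and mouse age together, and these cannot be told apart in any comparison between them.

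Glycolysis turns glucose into pyruvate and yields a little ATP without oxygen, and T cells are known to raise it when they are activated to grow and divide. Glucose enters through carriers such as Slc2a1 (GLUT1) and Slc2a3 (GLUT3), is trapped by hexokinases, and is split into triose sugars that the lower enzymes oxidise to pyruvate. Pyruvate is then either reduced to lactate by Ldha and exported by the monocarboxylate carriers Slc16a1 and Slc16a3, or carried into mitochondria by Mpc1 and Mpc2 and oxidised by pyruvate dehydrogenase. The pentose phosphate pathway branches off at glucose-6-phosphate and makes NADPH and ribose. Hif1a encodes the oxygen-regulated transcription factor subunit that is known to drive many of these genes, Egln1 and Egln3 encode prolyl hydroxylases that mark it for destruction, and pyruvate dehydrogenase kinases (Pdk) switch off pyruvate oxidation.

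HIF dimers are known to bind a core of 5 bases, ACGTG or GCGTG, and these letters were looked for on both strands in the 250 bases before the first-listed RefSeq start of each gene (GRCm38.p6). Of the 35 members with an entry (Slc2a3 had none), 15 held ACGTG, against 16.6% of all 27025 promoters, 21 held GCGTG, against 28.2%, and 30 held either, against 38.6%. These are counts of letters in a window, without a test, and a match is not a binding site. The palindrome CACGTG, the E-box that MYC family factors bind, would count as ACGTG on both strands. The 6 promoters below are shown because they belong to the members with the largest rises in activated Tconv cells among those with a match, and none of the 6 held CACGTG. Each is written 5′ to 3′ on the strand of its gene, with the matched letters in capitals (CACGT and CACGC are the same cores on the opposite strand).
Hk2 chr6:82774455-82774704 (minus strand): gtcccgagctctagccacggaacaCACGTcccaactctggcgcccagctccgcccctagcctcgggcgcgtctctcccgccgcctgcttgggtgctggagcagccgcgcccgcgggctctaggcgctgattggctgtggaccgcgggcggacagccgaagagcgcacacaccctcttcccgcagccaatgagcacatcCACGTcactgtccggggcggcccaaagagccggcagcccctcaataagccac
Gapdh chr6:125165774-125166023 (minus strand): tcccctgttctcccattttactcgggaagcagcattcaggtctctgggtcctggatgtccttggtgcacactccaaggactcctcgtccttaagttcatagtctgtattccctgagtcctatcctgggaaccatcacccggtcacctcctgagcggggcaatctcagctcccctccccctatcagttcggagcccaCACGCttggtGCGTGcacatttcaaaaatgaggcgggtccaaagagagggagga
Slc16a3 chr11:120948817-120949066 (plus strand): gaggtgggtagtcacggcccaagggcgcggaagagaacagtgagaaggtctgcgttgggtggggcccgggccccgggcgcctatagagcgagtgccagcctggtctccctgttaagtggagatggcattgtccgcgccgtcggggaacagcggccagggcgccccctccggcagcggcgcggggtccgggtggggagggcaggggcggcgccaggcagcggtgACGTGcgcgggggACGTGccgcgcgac
Pgk1 chrX:106186850-106187099 (plus strand): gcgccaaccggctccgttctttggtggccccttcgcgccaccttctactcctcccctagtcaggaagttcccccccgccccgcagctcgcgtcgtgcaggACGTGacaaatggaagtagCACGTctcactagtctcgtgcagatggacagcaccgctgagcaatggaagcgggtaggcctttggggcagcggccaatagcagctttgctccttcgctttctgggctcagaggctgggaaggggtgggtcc
Pgam1 chr19:41911621-41911870 (plus strand): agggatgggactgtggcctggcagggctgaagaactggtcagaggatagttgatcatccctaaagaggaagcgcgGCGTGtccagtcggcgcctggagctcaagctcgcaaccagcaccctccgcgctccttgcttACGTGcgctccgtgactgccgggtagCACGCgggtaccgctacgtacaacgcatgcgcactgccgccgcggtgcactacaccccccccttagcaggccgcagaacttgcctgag
Pfkp chr13:6648772-6649021 (minus strand): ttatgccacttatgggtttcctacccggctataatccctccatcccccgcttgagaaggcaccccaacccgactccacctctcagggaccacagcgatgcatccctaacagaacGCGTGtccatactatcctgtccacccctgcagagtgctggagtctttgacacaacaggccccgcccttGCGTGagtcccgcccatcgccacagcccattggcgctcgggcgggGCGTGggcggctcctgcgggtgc
Tpi1, whose rise in activated Tconv cells was smaller only than those of Hk2 and Gapdh, had neither core in its 250 bases, which says only that these letters are not in that window.

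Values below are read counts per gene that the authors normalized between libraries. The 24 libraries held 5256800 to 15685234 reads on genes, so that 3 reads, the floor used here, corresponded to 2.12 to 5.45 normalized reads. Within groups the libraries correlated at Pearson r of 0.967 or more over genes (log2 scale), with the lowest values in the tTreg groups. Cd4 lay between 3369 and 8818 normalized reads in all libraries. Foxp3 was 11.3, 10.3 and 9.65 in resting Tconv cells against 7218, 7767 and 7627 in resting tTregs and 1178, 1338 and 1324 in resting iTregs. Il2ra, Ctla4 and Lrrc32 were likewise higher in every resting tTreg and resting iTreg library than in resting Tconv cells. Il2ra was also high in activated Tconv cells (4315, 4290 and 4447). Ikzf2 was 10382, 9218 and 8610 in resting tTregs but 171, 141 and 189 in resting iTregs, against 188, 199.8 and 196 in resting Tconv cells. Cd8a was at most 13.2 in any library. Some members varied strongly among tTreg libraries of one group. Pgls, the 6-phosphogluconolactonase, was 41.7, 93.4 and 924 in resting and 1029, 127 and 65.4 in activated tTregs, and Hif1a was 1115, 1404 and 3635 and 4754, 1728 and 1054. Replicate 3 of the resting and replicate 1 of the activated tTregs stood apart for both genes, and results on tTregs are therefore also given without these 2 libraries, a choice made after the values were seen. Nothing in the labels said whether replicates came from separate mice or cultures, so p-values measure the spread between these libraries, which may be technical. In bulk RNA a lower level per cell cannot be told apart from fewer cells that express a gene.

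The 36 genes together took a small share of all normalized reads in sorted cells and a much larger one in cultured iTregs. Their summed share of a library was 0.705% ± 0.00671 (SD, n = 3) in resting and 1.23% ± 0.0126 in activated Tconv cells, and 0.742% ± 0.0267 and 1.02% ± 0.0471 in resting and activated tTregs. It was 3.95% ± 0.119 in resting iTregs, 4.19% ± 0.0177 after restimulation, 3.40% ± 0.0382 with the ORAI inhibitor and 3.48% ± 0.0723 with CsA. The 6 genes of lower glycolysis made up the largest part in every group, from 0.335% ± 0.00694 in resting Tconv cells to 2.78% ± 0.0238 in restimulated iTregs. The 6 genes of pyruvate entry were the one role whose mean share was highest in resting Tconv cells, at 0.0897% ± 0.00659 against 0.0550% ± 0.00613 in resting tTregs and 0.0626% ± 0.00383 in resting iTregs. This rank rested largely on Pdk1, which had the most reads of the 6 there (4933, 5193 and 3913). It was at 346, 324 and 384 in resting tTregs. Pdk2 was likewise higher in resting than in activated Tconv libraries, whereas Pdk3, Pdha1, Mpc1 and Mpc2 were lower in all resting than in all activated ones. These sums are a description without a test, and long transcripts weigh more in them than short ones.

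**Figure D1:**
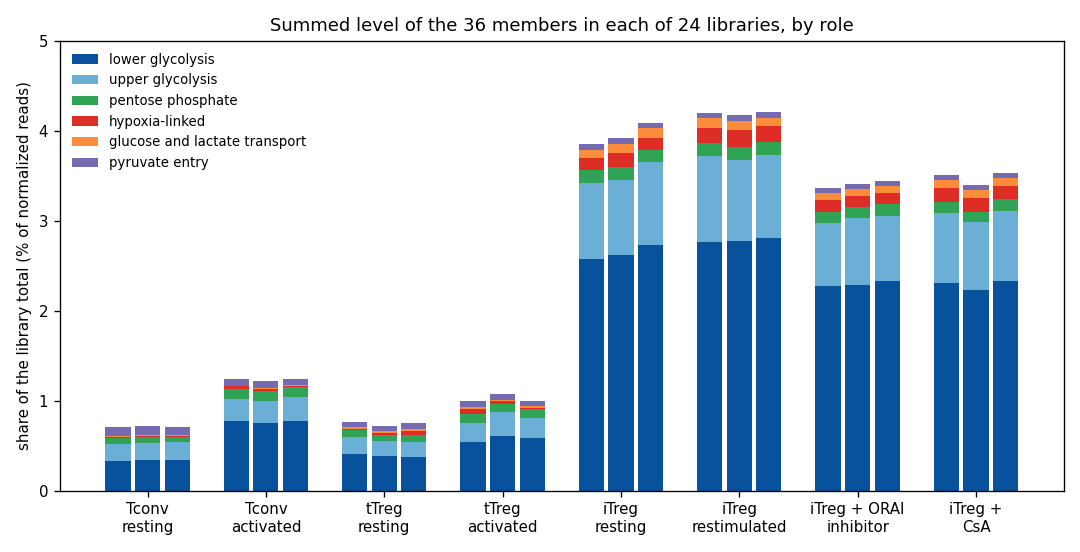
Share of each library's normalized reads taken by the 36 genes (y axis, percent), with 1 stacked bar for each of 24 libraries, 3 per group, coloured by role. The 12 iTreg bars stand well above those of the sorted cells, and in all of them lower glycolysis (dark blue, at the base) is the largest part.

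The first comparison asked how activation changed these genes in Tconv cells. All 6 genes of lower glycolysis rose, hexokinase 2 went from near the detection floor to a clear level, and the GLUT3 carrier and pyruvate dehydrogenase kinase 1 fell. Under quantile normalization the rise of Pkm was 0.41 on the log2 scale in place of 0.67 and no longer passed, which left 5 of the 6. In total 18 of the 36 rose past both thresholds (limma adjusted p under 0.05 and a log2 change above 0.5), where 24.5% of all 11495 genes tested did, and 6 fell, against 25.7%. The median log2 change was 0.67 for the members and -0.04 for all genes tested. By role, 2 of 4 carriers rose and 1 fell, 5 of 10 upper glycolytic genes rose and 1 fell, 3 of 6 pentose phosphate genes rose, 1 of 4 hypoxia-linked genes rose and 2 fell, and 1 of 6 pyruvate entry genes rose and 2 fell.

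Hk2, the inducible hexokinase, was at 4.11, 13.1 and 8.78 normalized reads in resting and 222, 211 and 246 in activated Tconv libraries. The activated libraries lay far above the resting ones, and the log2 change was 4.67 ± 0.30 (SE; adjusted p = 5.66e-09, limma). Gapdh, which oxidises glyceraldehyde-3-phosphate, went from 3914, 3895 and 3828 to 23384, 23983 and 24755, a 6.19-fold rise (log2 2.63 ± 0.11, adjusted p = 4.57e-11, limma). Tpi1, the triose phosphate isomerase, went from 592, 531 and 535 to 2243, 2063 and 2321, a log2 change of 2.00 ± 0.09. These were the 3 largest rises. The other lower glycolytic genes rose by 0.67 (Pkm, pyruvate kinase), 0.80 (Ldha), 1.03 (Eno1, enolase), 1.43 (Pgam1, phosphoglycerate mutase) and 1.71 (Pgk1, phosphoglycerate kinase) on the log2 scale. All 6 had groups that did not overlap, as did 35.4% of all genes in the direction of a rise. Gapdh, Eno1, Pgk1, Ldha and some other members have near-identical copies elsewhere in the genome, and reads of such copies could have been split between them by the counting.

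The largest fall was that of Pdk1, a kinase that holds pyruvate dehydrogenase inactive. It stood at 4933, 5193 and 3913 normalized reads in resting and 1107, 1231 and 724 in activated Tconv cells, a log2 change of -2.22 ± 0.20 (adjusted p = 1.62e-07, limma). Slc2a3 fell from 428, 457 and 459.9 to 142, 147 and 148 (log2 -1.62 ± 0.13, adjusted p = 4.31e-08). Bnip3, a mitophagy receptor and a known HIF target, fell from 206, 174 and 167 to 120.3, 103 and 105 (log2 -0.72 ± 0.20), and Egln1 changed by -0.69 ± 0.17. In contrast Slc16a3, the lactate exporter MCT4, rose from 15.4, 18.8 and 16.7 to 53.9, 75.9 and 63.7, which is 3.62-fold. In the pentose phosphate pathway Pgd, Tkt and G6pdx, which encode 6-phosphogluconate dehydrogenase, transketolase and glucose-6-phosphate dehydrogenase, rose by 1.31, 1.28 and 1.04, while Taldo1, Rpia and Pgls did not pass the test. Hif1a itself had groups that did not overlap (1235, 1351 and 888 against 2492, 3014 and 1694) and an adjusted p of 0.075. That p-value used a spread shared with the tTreg libraries, among which Hif1a varied strongly. The fall of Pdk2 had an adjusted p of 0.0411, which was 0.229 without replicate 2 and 0.0711 without replicate 3. Pfkl (log2 -0.50) lay at the size threshold and was past it neither without replicate 1 (-0.49) nor without replicate 2 (-0.45).

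Other members in Tconv cells are given by role. Among the carriers Slc16a1, the lactate carrier MCT1, rose from 129, 99.4 and 88.6 to 293, 241 and 210.1 normalized reads (log2 1.23 ± 0.26), while Slc2a1 was 389.8, 366 and 317 and 411, 413 and 439 (log2 0.24 ± 0.12, adjusted p = 0.0856, limma). In upper glycolysis Pfkp rose from 1227, 1255 and 1186 to 3252, 3086 and 3496 (log2 1.42 ± 0.13), ahead of Pfkm, the muscle-type phosphofructokinase (0.66 ± 0.15), and Hk1, the constitutive hexokinase (0.60 ± 0.16). Gpi1 (0.19 ± 0.09), Pfkfb3 (-0.25 ± 0.11), Aldoa (0.39 ± 0.12) and Aldoc (0.31 ± 0.22) did not pass both thresholds. The phosphofructokinase genes thus moved apart, with Pfkp and Pfkm higher and the liver-type Pfkl lower. Egln3 rose (1.01 ± 0.20) while Egln1 fell, and of the mitochondrial pyruvate carrier Mpc1 rose (0.85 ± 0.11) and Mpc2 had a change of 0.36 ± 0.17. Pdk3, a further kinase of pyruvate dehydrogenase, was 398, 331 and 317 in resting and 734, 849.5 and 571 in activated Tconv cells. Its activated libraries lay above the resting ones, opposite to Pdk1 and Pdk2, but the change did not pass (log2 1.03 ± 0.54, adjusted p = 0.115, limma). The spread in this test was shared with the tTreg libraries, where Pdk3 was 67.1, 240.1 and 568 at rest and 987, 399 and 376 after activation. Pdha1 had a change of 0.33 ± 0.10 that did not pass both thresholds. Reads of Pfkp may be shared with the overlapping gene Pitrm1 (5.58% of its exon bases), since the libraries do not mark strand. Larger parts overlapped another annotated gene for Mpc1 (23.1%), Bnip3 (22.3%), Pgls (20.6%), Pdha1 (16.1%), Pkm (15.3%) and G6pdx (13.6%). The same held for Gpi1 (11.5%), Pfkm (10.7%) and Hif1a (8.11%).

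**Figure D2:**
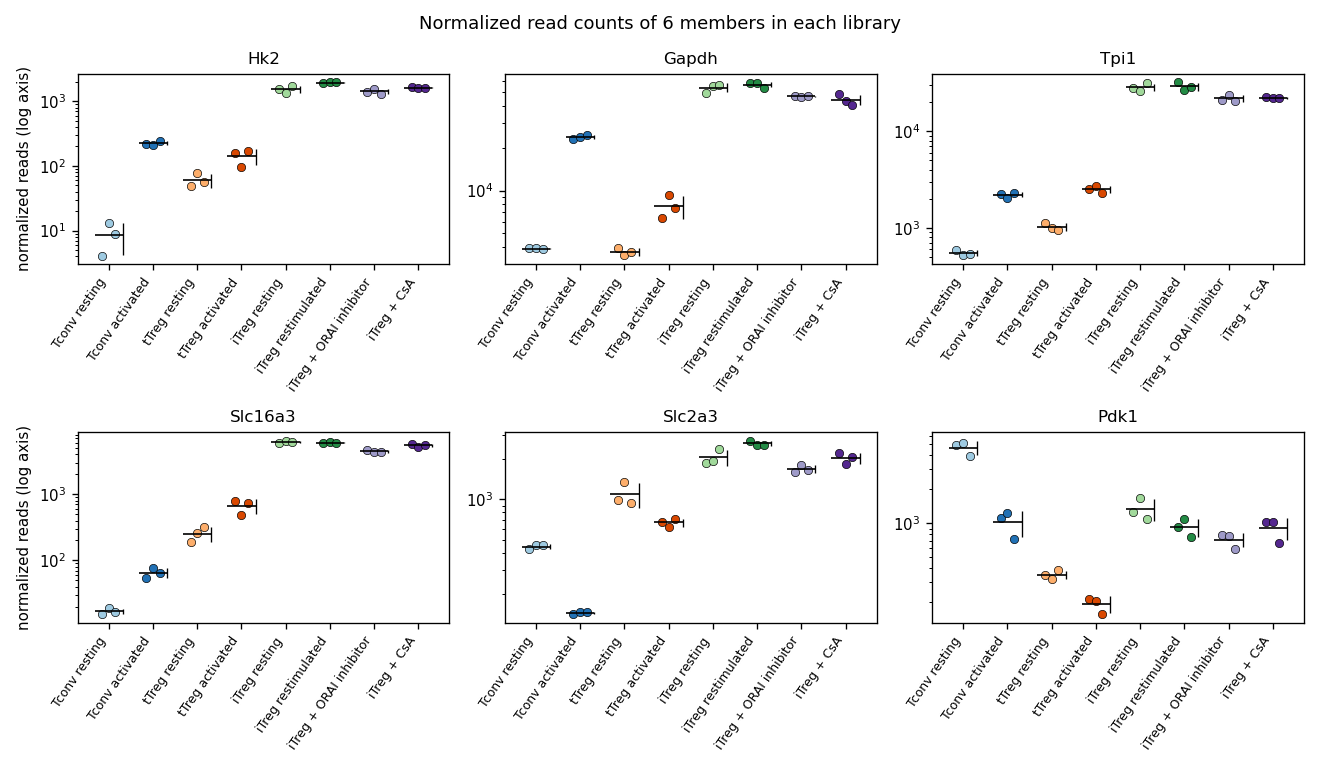
Normalized reads of 6 members (y axes, log scale) in each library, by group, with the mean as a horizontal line and the SD of 3 libraries as a vertical line. Hk2, Gapdh, Tpi1 and Slc16a3 were higher in all activated than in all resting Tconv libraries and higher again in iTregs, whereas Slc2a3 and Pdk1 were lower in activated than in resting Tconv libraries.

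The same question was put to tTregs. Here too glycolytic enzymes rose and Pdk1 and Slc2a3 fell. In all 13 of the 36 rose, where 11.9% of all genes tested did, and 2 fell, against 10%, and the median log2 change was 0.38 for the members and 0.00 for all genes. Of lower glycolysis 4 of 6 rose, of upper glycolysis 5 of 10, and of the pentose phosphate genes 1 of 6, the transketolase Tkt (log2 0.87 ± 0.09). Slc16a3 went from 190.5, 257 and 316 to 790.5, 479 and 737 normalized reads, the largest rise (log2 1.39 ± 0.20, adjusted p = 0.000133, limma). Tpi1 went from 1126, 991 and 943 to 2552, 2708 and 2299.6 (log2 1.30 ± 0.09), and Hk2 from 49.0, 76.6 and 55.8 to 159, 97.4 and 169 (log2 1.20 ± 0.30, adjusted p = 0.00731). For all 3 the activated libraries lay above the resting ones, as they did for 19% of all genes tested. The falls were again Pdk1, from 346, 324 and 384 to 215, 207 and 156 (log2 -0.87 ± 0.20), and Slc2a3, from 981, 1348 and 937 to 680.1, 625 and 719 (log2 -0.67 ± 0.13). Without the 2 tTreg libraries that stood apart 12 members rose and 2 fell. The call of Hk2 was then lost (adjusted p = 0.056), as it was without replicate 3 (0.112), and so was that of Aldoc (0.0828). Slc2a3 kept its direction without replicate 2 but at a log2 change of -0.45.

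Whether activation changed a gene differently in the 2 cell types was tested directly, as the response of Tconv cells minus that of tTregs. For 12 members the response was higher in Tconv cells, where 17% of all genes tested were, and for 5 it was lower, against 17.7%. The difference was largest for Hk2, at 3.47 ± 0.43 on the log2 scale (adjusted p = 1.74e-05, limma), with responses of 4.67 in Tconv cells and 1.20 in tTregs. Gapdh followed (1.58 ± 0.15, adjusted p = 1.84e-06), with activated tTreg libraries at 6407, 9314 and 7517 against the far higher activated Tconv values above. Pfkp, the platelet-type phosphofructokinase, came next (1.10 ± 0.19), after Hk2 and Gapdh: it rose in Tconv cells (1.42) and its change in tTregs was 0.32 ± 0.13 (adjusted p = 0.0748). Of the pentose phosphate pathway Pgd and G6pdx stood among the 12 as well, with differences of 0.94 and 0.85. The difference of Pgls was 0.03 and did not pass. Among the 5, Pdk1 (-1.35 ± 0.28), Bnip3 (-1.30 ± 0.28) and Pdk2 (-1.11 ± 0.38) led. Bnip3 fell in Tconv cells (-0.72) and rose in tTregs (0.57), although its tTreg libraries overlapped (212, 132 and 136 against 175, 317 and 227) and that rise was lost without replicate 2 (adjusted p = 0.467) or 3 (0.226). The call of Pdk2 was lost without replicate 1 (0.116) or 2 (0.185). Pkm and Slc16a3, in comparison, had differences of -0.24 ± 0.11 and 0.47 ± 0.28 that did not pass (95% intervals -0.48 to -0.01 and -0.13 to 1.07). Without the 2 tTreg libraries that stood apart, the counts were 10 higher and 5 lower.

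**Figure D3:**
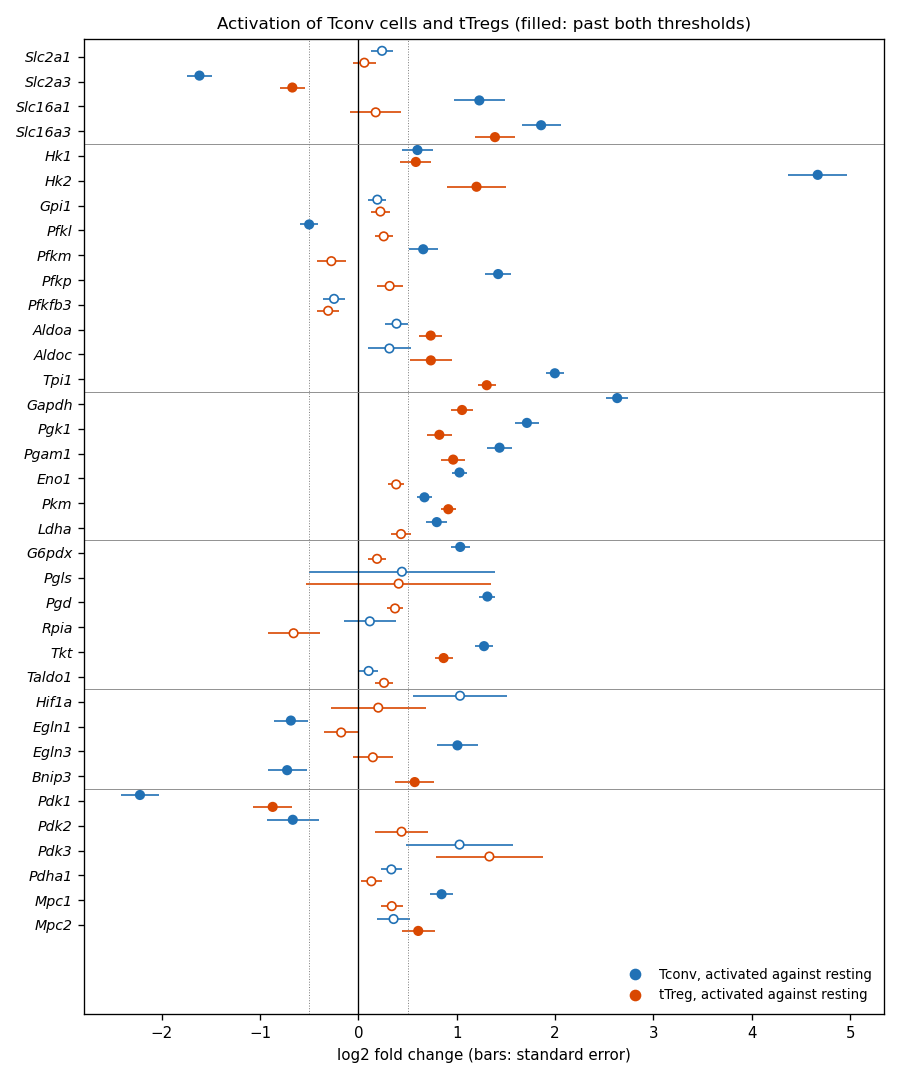
Log2 fold change on activation (x axis) of each of the 36 genes in Tconv cells (blue) and tTregs (orange), with standard errors as bars, filled points for changes past both thresholds and grey lines between roles. Hk2 has the largest rise in Tconv cells (4.67), and Pdk1 the largest fall in either cell type (-2.22 in Tconv cells).

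At rest the sorted cell types differed in the lactate exporter, hexokinase 2 and pyruvate dehydrogenase kinase 1. In resting tTregs 7 members were higher than in resting Tconv cells (20.5% of all genes tested) and 4 were lower (18.2%), while the 6 lower glycolytic genes had log2 differences of -0.43 to 0.28. Slc16a3 was at 190.5, 257 and 316 in resting tTregs against 15.4, 18.8 and 16.7 in resting Tconv cells, a 14.0-fold higher level (log2 3.80 ± 0.20, adjusted p = 6.92e-10, limma). Hk2 (log2 2.76 ± 0.30) and Slc2a3 (1.26 ± 0.13) came next. All 3 had tTreg libraries above every Tconv library, as had 29% of all genes tested. Pdk1 was 346, 324 and 384 against 4933, 5193 and 3913, a log2 difference of -3.72 ± 0.20 (adjusted p = 7.7e-10). Aldoa, the muscle-type aldolase, was 4753, 3824 and 4214 against 9415, 9441 and 9815 (log2 -1.17 ± 0.12). Pgls had a log2 difference of -2.58 ± 0.94 that rested on 2 low libraries of 3: its adjusted p was 0.033 in all libraries, 0.0957 without replicate 1, 0.257 without replicate 2 and 0.192 in edgeR. The difference was -3.87 without the 2 libraries that stood apart, which were set aside partly for their Pgls values, so it cannot serve as a test of Pgls. Without those 2 libraries 7 members were higher and 5 lower, and the call of Egln1 was lost (adjusted p = 0.0849).

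After activation 5 members were higher in tTregs than in Tconv cells (25.6% of all genes tested) and 12 were lower (22.6%). Slc16a3 (3.33 ± 0.20), Slc2a3 (2.20 ± 0.13) and Aldoc, the brain-type aldolase (1.18 ± 0.22), were the largest of the 5 on the log2 scale. In normalized reads Slc2a3 was 680.1, 625 and 719 in activated tTregs against 142, 147 and 148 in activated Tconv cells. Among the 12, Pgls (-2.61 ± 0.94), Pdk1 (-2.38 ± 0.20) and Gapdh (-1.65 ± 0.11, adjusted p = 1.16e-08, limma) had the largest differences. Pgls again varied among tTreg libraries, and its adjusted p of 0.0265 was 0.225 without replicate 2, 0.0747 without replicate 3 and 0.108 in edgeR. The difference was -3.77 without the 2 libraries that stood apart. They were set aside partly for their Pgls values, so this value cannot serve as a test of Pgls. Without those 2 libraries 5 members were higher and 13 lower, and the call of Pfkm was lost (log2 -0.47). Of lower glycolysis, Gapdh, Pgk1 (-1.28) and Ldha (-0.79) were lower in activated tTregs, and under quantile normalization the difference of Ldha was -0.36 and did not pass. Pgd (-0.73) and G6pdx (-1.05) were lower too. Aldoc was 167, 203 and 162 in activated tTregs against 85.3, 64.7 and 83.5 in activated Tconv cells, with every tTreg library above every Tconv library.

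Several steps are served by isoenzymes, and their make-up was compared as the share of one form in its pair or trio after division by exon length. Hk2 made up 1.72% ± 0.713 (SD, n = 3) of Hk1 and Hk2 in resting Tconv cells and 23.8% ± 1.36 after activation, against 9.16% ± 1.67 and 13.4% ± 1.04 in tTregs and 50.1% ± 5.28 in resting iTregs. By library the Tconv shares were 0.941, 2.34 and 1.87% at rest and 23.5, 22.5 and 25.2% when activated. Pfkp took 30.9% ± 0.481 of the phosphofructokinase trio in resting and 58.4% ± 1.05 in activated Tconv cells, whereas in tTregs the means were 36.2% ± 2.83 and 38.8% ± 6.73, with overlapping libraries. Pdk1 took 73.5% ± 1.95 of the 3 kinases in resting and 28.2% ± 2.19 in activated Tconv cells, and 29.1% ± 2.25 in resting and 19.3% ± 0.983 in restimulated iTregs. The share of Slc2a3 in the 2 glucose carriers was 37.9% ± 3.29 in resting and 14.3% ± 0.317 in activated Tconv cells. Slc16a3 took 12.1% ± 2.58 of the 2 lactate carriers in resting Tconv cells, 73.7% ± 5.17 in resting tTregs and 93.8% ± 0.368 in resting iTregs. Aldoc stayed a minor form, at 0.578% ± 0.0828 of the 2 aldolases in resting Tconv cells and 2.49% ± 0.304 in resting iTregs. Over the 54 tests made (6 shares in 9 comparisons), the groups did not overlap in 35. With 3 libraries against 3 an exact two-sided permutation test cannot go below p = 0.1, which these 35 reached, and the smallest value after Benjamini-Hochberg adjustment was 0.154.

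**Figure D4:**
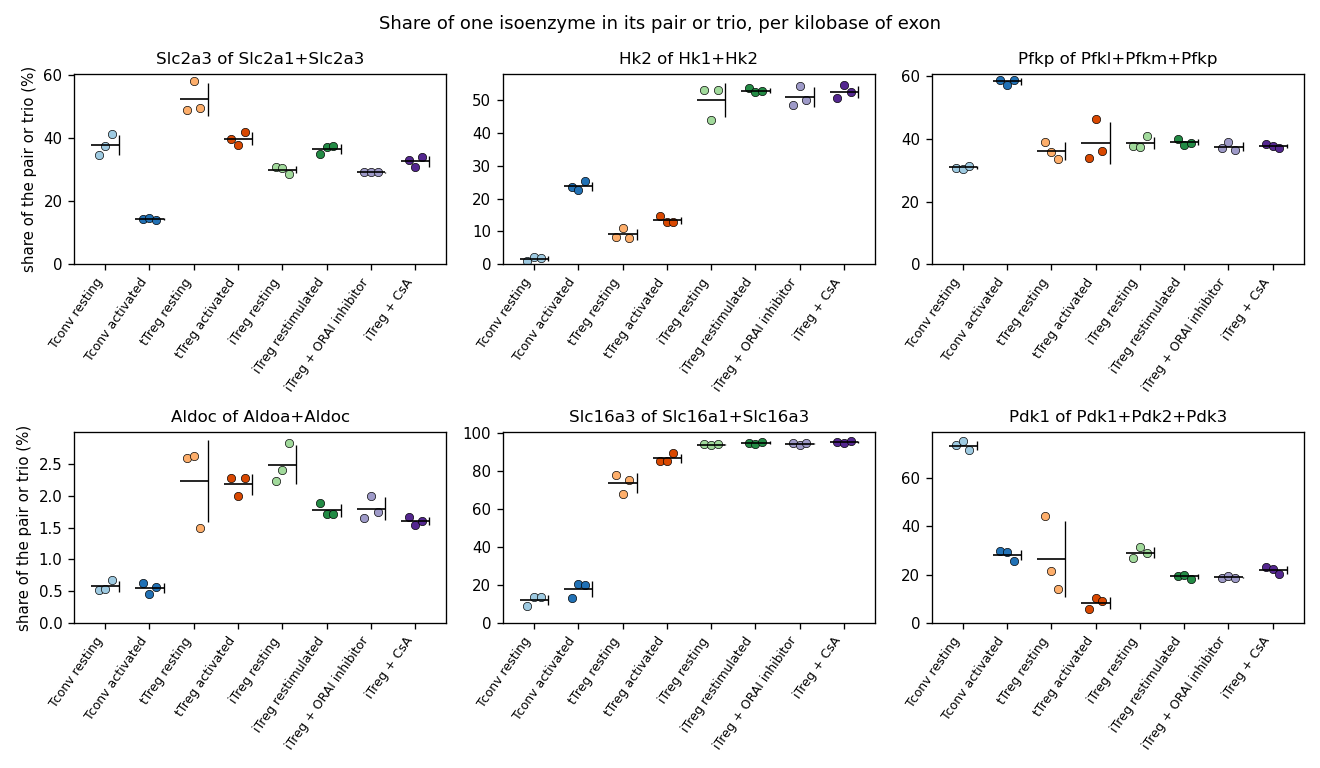
Share (y axes, percent, from 0) of 1 isoenzyme in its pair or trio per kilobase of exon, in each library by group, with the mean as a horizontal line and the SD as a vertical line. In Tconv cells the Hk2 and Pfkp shares are higher, and the Slc2a3 and Pdk1 shares lower, in all 3 activated than in all 3 resting libraries.

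Resting iTregs held most of these transcripts at higher levels than either sorted cell type, and those of pyruvate entry went both ways. Against resting Tconv cells 29 of 36 were higher (32.8% of all genes tested) and 2 were lower (30.8%), with a median log2 difference of 1.87 for the members and 0.02 for all genes. Against resting tTregs 31 were higher (32.3%) and 1 was lower (31.1%), with medians of 2.23 and 0.02. Even against activated Tconv cells 23 were higher (22.9%) and 3 lower (18.7%), with medians of 1.18 and 0.02. All 6 lower glycolytic genes were higher in the 3 comparisons, and so were 9 of the 10 upper glycolytic genes against activated Tconv cells and all 10 in the other 2 comparisons. Against resting cells all 4 carriers and all 4 hypoxia-linked genes were higher as well. Of the 6 pentose phosphate genes 3 were higher than in resting Tconv cells, 4 higher than in resting tTregs, and 2 higher and 1 lower than in activated Tconv cells. Of the 6 pyruvate entry genes 2 were higher and 2 lower than in resting Tconv cells (median log2 difference 0.01), 3 higher and 1 lower than in resting tTregs (0.70), and 0 higher and 2 lower than in activated Tconv cells (-0.09). Without the 2 tTreg libraries that stood apart 30 members were higher and 1 lower than in resting tTregs, and the call of G6pdx was lost (log2 0.49).

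The largest differences from resting Tconv cells were those of the lactate exporter, hexokinase 2 and a HIF prolyl hydroxylase. Slc16a3 was at 6006, 6339.7 and 6242 normalized reads in resting iTregs, 346-fold above resting Tconv cells (log2 8.43 ± 0.20, adjusted p = 4.86e-14, limma) and 95.5-fold above activated ones (log2 6.58 ± 0.20). Hk2 was at 1539, 1329 and 1699.6, a log2 difference of 7.41 ± 0.30 from resting and 2.74 ± 0.30 from activated Tconv cells. Egln3 was at 5160.2, 4687 and 4347, against 58.6, 43.1 and 41.3 in resting Tconv cells, 106, 112 and 73.6 in activated Tconv cells and 69.8, 109 and 109 in resting tTregs. No iTreg library came near any of the sorted ones for this gene (log2 6.62 ± 0.20, 5.61 ± 0.20 and 5.63 ± 0.20 in that order). Bnip3 was at 5058, 4733 and 4798, a log2 difference of 5.46 ± 0.20 from activated Tconv cells and 4.95 ± 0.20 from resting tTregs. Tpi1, at 28379, 26274 and 31246, differed from resting tTregs by 4.81 ± 0.09. Compared with activated Tconv cells the 3 lower members were Pdk2 (61.1, 68.6 and 53.1 against 162, 160.4 and 146, log2 -1.35 ± 0.27), G6pdx (855, 912 and 998 against 1465, 1427 and 1531, log2 -0.68 ± 0.10) and Pdha1, a subunit of pyruvate dehydrogenase (2213, 2131 and 2296 against 3456, 3414 and 3373, log2 -0.63 ± 0.10). In resting Tconv cells Pdk2 was 226, 279.5 and 242 and in resting tTregs 94.3, 184 and 262. Pdk2 was lower in all 3 comparisons, and Pdk1 was lower than in resting Tconv cells (log2 -1.81 ± 0.20) and higher than in resting tTregs (1.92 ± 0.20). The pentose phosphate genes differed less: Pgd (0.05 ± 0.08) and Taldo1 (0.20 ± 0.10) did not pass against activated Tconv cells, and the call of Rpia was lost there without replicate 1 (adjusted p = 0.132) or 2 (0.0531). Hif1a was higher than in resting tTregs (log2 1.34 ± 0.48, adjusted p = 0.0206), which did not pass without replicate 2 (0.253).

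The wider lists of the same pathways were counted beside the members. Of 18 other hypoxia-linked genes tested, 11 were higher and 4 lower in resting iTregs than in resting Tconv cells, beside 32.8% and 30.8% of all genes, and the median log2 difference of the list was 2.02. Hif3a, a further HIF alpha subunit, had the largest rise (5.65 ± 0.56) and Epas1, which encodes HIF-2α, the largest fall (-4.44 ± 0.42). On activation of Tconv cells the same list went both ways, with 4 higher and 6 lower, beside 24.5% and 25.7% of all genes, from Car12, a carbonic anhydrase (3.38 ± 0.54), to Epas1 (-1.96 ± 0.42). Of 20 other glycolysis genes tested 6 rose and 5 fell in activated Tconv cells, shares near those of all genes. The hexose carrier Slc2a6 led the rises (5.19 ± 0.24), and Emb, an ancillary protein of the lactate carriers, the falls (-2.06 ± 0.11). In resting iTregs compared with resting Tconv cells 7 of these 20 were higher and 5 lower, again near the shares of all genes, and Emb had the largest fall (-2.50 ± 0.11). Of 6 other pentose phosphate genes 2 rose and 2 fell in activated Tconv cells, and of 8 other pyruvate dehydrogenase genes 2 rose and 1 fell. Pcx, the pyruvate carboxylase that feeds the citrate cycle, was among the latter list 5.59 ± 0.22 higher on the log2 scale in resting iTregs than in resting Tconv cells (adjusted p = 8e-12, limma).

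The last comparisons asked what restimulation did to these genes in iTregs and what the inhibitors did to restimulated cells. Restimulation moved few members. Egln3 rose, from 5160.2, 4687 and 4347 in resting to 7434, 7740.3 and 8200.3 in restimulated iTregs (log2 0.72 ± 0.07, adjusted p = 4.61e-06, limma), and Pdk1 fell, from 1271, 1671 and 1102 to 929.6, 1092 and 754 (log2 -0.54 ± 0.18, adjusted p = 0.0373). These were 1 higher and 1 lower of 36, where 6.7% and 6.13% of all 11105 genes tested were. The Egln3 libraries were fully separated and stood above the resting ones. The fall of Pdk1 did not pass without replicate 1 (adjusted p = 0.14) or 2 (0.119), nor in DESeq2 (0.0756). By adjusted p alone 7 members were higher and 1 lower, beside 14.2% and 15.2% of all genes. Among them were Pgk1 (0.28 ± 0.05), Aldoa (0.23 ± 0.05) and Hk2 (0.36 ± 0.08). The median log2 change of the members was 0.07.

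With the ORAI inhibitor 3 members fell past both thresholds, where 1.79% of all genes tested did, and 0 rose, against 1.5%. The 0 held in limma, edgeR and DESeq2. Bnip3 was 5060.1, 5672 and 6066 in restimulated iTregs and 3341, 2976 and 3666 with the inhibitor, a log2 change of -0.75 ± 0.08 (adjusted p = 4.78e-05, limma). Slc2a3 was 2689, 2530.4 and 2524 and 1583, 1788 and 1643 (log2 -0.63 ± 0.09), and Pfkp 8091, 7661 and 7859 and 5224, 5750.1 and 5654 (log2 -0.51 ± 0.07). In all 3 the treated libraries lay below every restimulated one, as in 12.5% of all genes tested, and the call of Pfkp was lost without replicate 1 (log2 -0.44). Smaller shifts were common among the members: by adjusted p alone 22 of 36 were lower, where 4.05% of all genes tested were, and 0 were higher, against 3.77%. These 22 held 6 of 6 lower and 10 of 10 upper glycolytic genes, and the log2 changes of the 22 ran from -0.75 to -0.23. The median was -0.32 over the members and 0.01 over all genes. With CsA 0 members passed both thresholds in limma, edgeR or DESeq2, against 1.57% of genes higher and 1.35% lower. By adjusted p alone 17 of 36 were lower with CsA, against 4.37% of all genes, and 0 were higher, against 4.14%, with a median of -0.25 over the members and 0.00 over all genes. The 17 held 6 of 6 lower and 6 of 10 upper glycolytic genes and G6pdx, Pgd and Tkt of the pentose phosphate pathway. Both comparisons share the restimulated libraries, so their values are set side by side for 3 members. Hk2 was 1927, 1966 and 1954 in restimulated iTregs, 1414, 1552 and 1301 with the ORAI inhibitor and 1636, 1628 and 1610.5 with CsA (log2 -0.46 ± 0.08 and -0.26 ± 0.08). Bnip3 with CsA was 4249.9, 4579 and 4939 (log2 -0.29 ± 0.08). Gapdh was 57739, 57867 and 53773 in restimulated iTregs, 46846, 46133 and 47117 with the ORAI inhibitor and 48207, 43532 and 40839.6 with CsA. Both treated groups lay below the restimulated one (log2 -0.27 ± 0.07 and -0.36 ± 0.07).

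**Figure D5:**
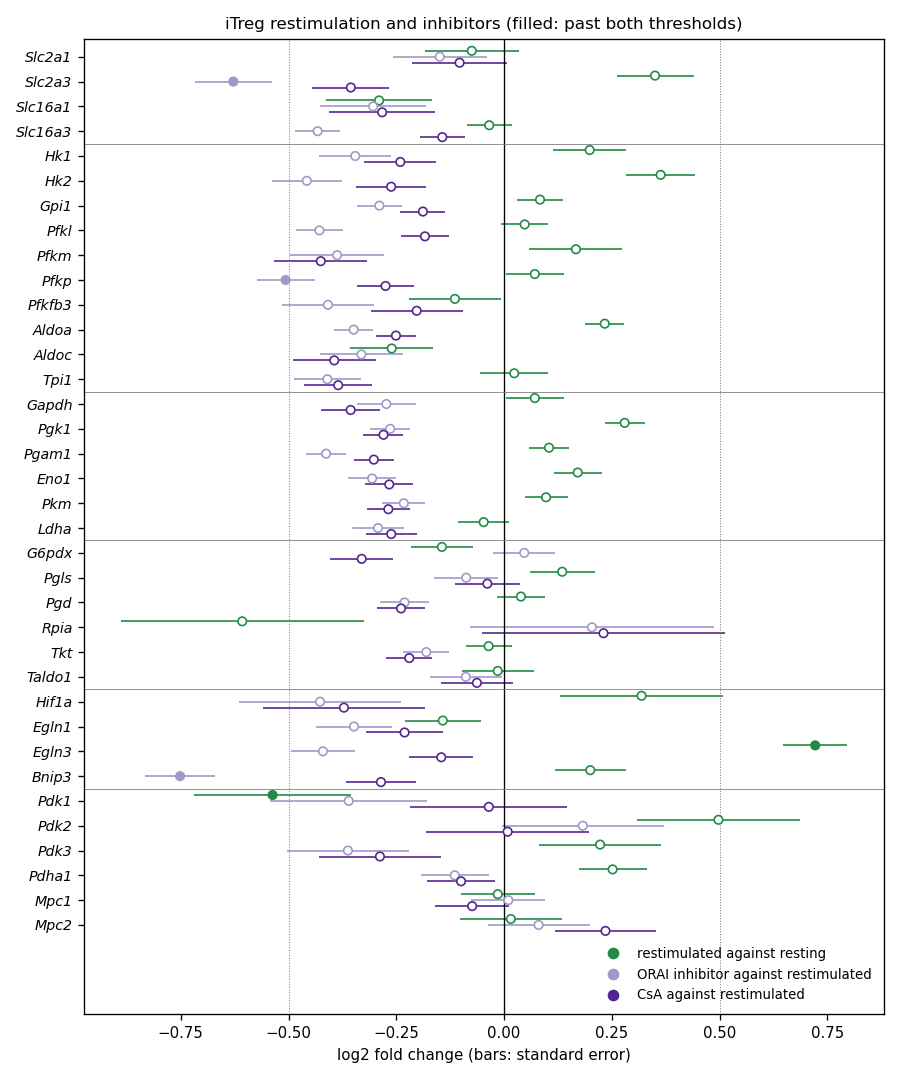
Log2 fold change (x axis) of each of the 36 genes in iTregs for restimulated against resting (green), ORAI inhibitor against restimulated (light purple) and CsA against restimulated (dark purple), with standard errors as bars and filled points for changes past both thresholds. Most inhibitor points lie between 0 and -0.5, and 3 with the ORAI inhibitor (Bnip3, Slc2a3 and Pfkp) and 0 with CsA are filled on that side.

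Compared with resting iTregs, the mean log2 level was lower for 30 of 36 members with the ORAI inhibitor (median -0.20) and for 30 of 36 with CsA (median -0.15), given as a description without a test. Between the 2 inhibitors 0 members passed both thresholds in limma, edgeR or DESeq2, where 0.0991% of genes were higher and 0.261% lower with the ORAI inhibitor. By adjusted p alone Slc16a3 (-0.29 ± 0.05, adjusted p = 0.0128) and Bnip3 (-0.47 ± 0.08, adjusted p = 0.0114) were lower and G6pdx was higher (0.38 ± 0.07, adjusted p = 0.0211) with the ORAI inhibitor than with CsA, where 0.576% of all genes tested were lower and 0.198% higher. G6pdx was 861, 811 and 910.0 with the ORAI inhibitor and 687, 649 and 650.1 with CsA, and the libraries did not overlap. The 95% interval of the difference lay within 0.5 on either side of 0 for 31 of 36 members, and the widest bounds were -0.71 for Pdk1 and 0.58 for Pdk2. The doses of the 2 inhibitors were not given, so these values stand side by side at unknown relative doses. In the wider lists 4 of 18 other hypoxia-linked genes fell with the ORAI inhibitor, beside 1.79% of all genes tested. With CsA 0 of 18 passed, beside 1.35% of all genes lower and 1.57% higher, so this 0 is near the shares of all genes. The median log2 change of the list was -0.40 with the ORAI inhibitor and -0.19 with CsA. P4ha2, a collagen prolyl hydroxylase and known HIF target, fell the most (-0.94 ± 0.11, adjusted p = 9.1e-05, limma), and its level with the ORAI inhibitor was also below that with CsA (-0.54 ± 0.11, adjusted p = 0.0365).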

How the data were processed

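RNA-seq was measured in 24 mouse libraries, 3 in each of 8 groups assigned from the sample labels. Per the study's methods the authors prepared libraries by a modified SMART-seq2 protocol, which does not mark strand, trimmed reads with cutadapt 1.18, aligned them with STAR 2.5.3 to mm10 and counted them per gene with RSEM 1.3.0. The authors deposited a normalized signal, gene counts divided by DESeq2 size factors. In every library all values were whole multiples of the value of 1 read, within 0.01 read, so reads were recovered (5256800 to 15685234 on genes). Fold changes were computed here on log2(value + 1) with limma 3.58.1 (trend, R 4.3.3), a scale that understates changes of low genes, for genes with at least 10 normalized reads in 3 libraries. One fit held the 15 Tconv, tTreg and resting iTreg libraries and a second the 12 iTreg libraries. Each gene had 1 estimate of its spread per fit, shared by all groups in it. A gene was called at a Benjamini-Hochberg adjusted p, over all genes tested, under 0.05 and an absolute log2 change above 0.5. Isoenzyme shares used the union of exons of GENCODE annotation on GRCm38 and exact permutation tests in scipy 1.17.1. Values of every library were given for the 3 largest rises and falls past both thresholds in a comparison and for isoenzymes, and the largest rise and fall of a wider pathway list could be named. Members, lists and tests were chosen with earlier results of these data known. The fits were tested on simulated data. Alternatives were other scalings, pseudocounts and filters, other sets of libraries, a replicate block, edgeR 4.0.16 and DESeq2 1.42.0 on the recovered reads. Figures were drawn with matplotlib 3.10.9. No interval from counting alone is given, since PCR duplicates are not independent molecules.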

Additional observations from a re-analysis of the deposited data

Results flagged for a closer look

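The response to activation differed between Tconv cells and tTregs for 17 of the 36 genes in a direct test of the difference (limma, adjusted p under 0.05 and a log2 difference above 0.5). It did so for 34.7% of all 11495 genes tested. The response was higher in Tconv cells, by the log2 difference given, for Hk2 (3.47), Gapdh (1.58), Pfkp (1.10), Slc16a1 (1.05), Pgd (0.94), Pfkm (0.93), Pgk1 (0.89), Egln3 (0.86), G6pdx (0.85), Tpi1 (0.69), Eno1 (0.64) and Mpc1 (0.51). It was lower in Tconv cells for Pdk1 (-1.35), Bnip3 (-1.30), Pdk2 (-1.11), Slc2a3 (-0.94) and Pfkl (-0.76). Without the 2 tTreg libraries that stood apart, the calls of Egln3 (adjusted p = 0.0812) and Mpc1 (log2 0.48) were lost. The call of Slc16a1 was lost without replicate 2 (adjusted p = 0.314) or 3 (0.238), that of Egln3 without replicate 2 (0.387) or 3 (0.055), and that of Mpc1 without replicate 1 (0.181) or 3 (0.102).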

How the results depend on the processing

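The 178 calls of a member in a comparison kept their direction under every alternative run, and 148 were called in all refits. Quantile normalization lost 10 of the 178, recomputed size factors 2, a pseudocount of 5 lost 1, a fit of only the groups compared 7, edgeR 3 and DESeq2 3 of 175 with an adjusted p. Leaving out replicate 1, 2 or 3 lost 12, 18 and 11, and leaving out both tTreg libraries that stood apart lost 7 of 92. A threshold of 1 on the log2 change left 15 members called in activated against resting Tconv cells, 4 in tTregs, 7 in the difference between them, 7 between resting and 10 between activated tTregs and Tconv cells, 0 on restimulation and 0 with the ORAI inhibitor. The share of all genes past a threshold of 1 is not given here, so these counts describe the members alone. Adjusted p alone gave 18 between resting tTregs and Tconv cells, 11 higher and 7 lower, beside 25.9% and 25.4% of all genes tested. It gave 8 on restimulation (7 higher and 1 lower, beside 14.2% and 15.2%). With the ORAI inhibitor it gave 22 lower, beside 4.05%, and with CsA 17 lower, beside 4.37%. Between inhibitors it gave 3 (1 higher and 2 lower, beside 0.198% and 0.576%). On restimulation 2 members were called and 1 without a filter, with all 24 libraries in one fit and in DESeq2, where the lost call was that of Pdk1; the cause was not tested. Leaving out a replicate gave 1 to 2 on restimulation and 2 to 5 with the ORAI inhibitor, where 3 were called with all libraries and 5 without replicate 2.

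The labels did not say whether the replicate numbers pair the samples, and the main fits had no term for them. Same-numbered libraries deviated together by r of -0.42 to 0.30, and in no comparison did every pair exceed 0.1. Negative values occurred only in comparisons with tTregs. Between Tconv and iTreg groups every same-number r was positive (0.03 to 0.30). The mean r with other numbers was negative there, but deviations from a group mean cancel within the group. That mean is therefore tied to the same-number r and is no separate evidence of pairing. In 5 of 11 comparisons (activated against resting Tconv cells, resting iTregs against either Tconv group, restimulated against resting iTregs, and CsA) all 6 libraries correlated best with their own number, a hint from the data and not from the design. With the replicate block 24 members were called in activated Tconv cells, as without it, and 14 in tTregs, against 15 without it; 3 of the 178 calls were lost, those of Bnip3 in activated tTregs (adjusted p = 0.0502), Slc16a1 in the difference between responses (0.0511) and Pgls between resting tTregs and Tconv cells (0.051).

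Measured as the difference of the median member level in place of the log2 ratio of the summed shares, the values were 0.69 in place of 0.80 for activated against resting Tconv cells, 0.10 (0.46) for tTregs, 0.17 (0.07) and -0.41 (-0.27) for tTregs against Tconv cells at rest and activated, 1.62 (2.49), 0.93 (1.68) and 1.45 (2.41) for resting iTregs against resting and activated Tconv cells and resting tTregs, 0.16 (0.09) on restimulation, -0.18 (-0.30) with the ORAI inhibitor and -0.14 (-0.27) with CsA. Of 216 alternative values of isoenzyme shares, 11 differed in sign from the one reported. Hk2 in resting Tconv cells, at 4.11, 13.1 and 8.78 normalized reads, lay near the floor of 3 reads, which limits the precision of its fold change.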

Other observations

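The wider pathway lists were also counted between the sorted cell types. Of 18 other hypoxia-linked genes tested 6 were higher and 3 lower in resting tTregs than in resting Tconv cells, from Car12 (3.70 ± 0.54 on the log2 scale) to P4ha2 (-3.78 ± 0.36), beside 20.5% and 18.2% of all genes tested. After activation 7 were higher and 4 lower, beside 25.6% and 22.6% of all genes, and Mxi1, a MYC antagonist, led the former (2.19 ± 0.14, adjusted p = 1.01e-08, limma). Of 20 other glycolysis genes tested 5 were higher and 5 lower in resting tTregs, shares near those of all genes. The neuronal enolase Eno2 led the former (3.72 ± 0.65) and Minpp1, an inositol phosphate phosphatase, the latter (-2.05 ± 0.46).

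Hif1a, Pdk1 and Pdk3 were each lowest in replicate 3 in 6 of the 6 Tconv and iTreg groups. Pdk1, for example, was 4933, 5193 and 3913 in resting and 1107, 1231 and 724 in activated Tconv cells, and 1271, 1671 and 1102 in resting iTregs. In tTregs Hif1a was lowest in replicate 1 at rest and in replicate 3 after activation. Slc16a1 was lowest in replicate 3 in 5 of the 6 groups. What the replicates with one number shared was not given in the labels and was not tested.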
